A study of Mus musculus with 2 samples.

Results

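Transcript levels of *Trp53* and of 9 genes that p53 can activate were measured in single cells of 2 mouse small cell lung tumors, TKO1 and TKO2. The members were chosen by name, *Trp53*, *Cdkn1a*, *Mdm2*, *Ccng1*, *Bax*, *Bbc3*, *Pmaip1*, *Eda2r*, *Zmat3* and *Sesn2*, and are 10 of the 27998 gene identifiers in the files. Each tumor came from 1 mouse and gave 1 library of droplet-based 3′ RNA counts, with a unique molecular identifier (UMI) on each captured transcript. Both mice are labelled Rb-/-, Trp53-/-, Rbl2-/- and carry a Rosa26 membrane-Tomato or membrane-GFP reporter, on a background mixed from C57BL/6, 129/SVJ and 129/SvOla. The paper describes the deletions as conditional, made by Cre in lung cells, so the label does not mean that every cell lacks these genes. The mice were 8 to 9 months old, and cells were taken 7 months after Adeno-CMV-Cre had been given to start the tumors. No group without the deletions is among the samples. The CMV promoter of the virus does not restrict Cre to 1 cell type, so lung and immune cells in the same library cannot be assumed to carry intact *Trp53*. Which exons of *Trp53* were removed is not given in the sources used here, and counts per gene do not check the deletion.

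p53 is a transcription factor that is held at low levels by the ubiquitin ligase Mdm2 and accumulates after DNA damage and other stress. It then binds paired half-sites near its target genes and activates programs of cell cycle arrest, apoptosis and metabolic adjustment, among them Mdm2 itself, which closes a feedback loop. Many of its targets also answer to other regulators, so their transcripts can be present where p53 is absent. Loss of p53 together with Rb is a hallmark of small cell lung cancer, and it is the basis of this mouse model.

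The transcription start of *Cdkn1a* used here lies on the plus strand of mouse chromosome 17 and that of *Ccng1* on the minus strand of chromosome 11. The 250 bases before each start are shown because, of the 8 members with a RefSeq promoter window (GRCm38.p6), these are the members whose window holds the consensus p53 element, a pair of adjoining 10-base half-sites, with at most 1 mismatch in 20 bases. Capitals mark the element. The *Cdkn1a* run is chr17:29090729-29090978 and the *Ccng1* run is chr11:40755287-40755536, each written 5′ to 3′ along the gene. Another RefSeq window of *Cdkn1a*, with upstream bases chr17:29093519-29093768, holds neither the element nor an exact half-site.
Cdkn1a: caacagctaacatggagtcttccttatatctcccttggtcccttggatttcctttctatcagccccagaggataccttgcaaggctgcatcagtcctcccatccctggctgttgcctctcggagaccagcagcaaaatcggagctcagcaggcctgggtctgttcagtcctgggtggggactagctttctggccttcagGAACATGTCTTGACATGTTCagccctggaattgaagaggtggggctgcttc
Ccng1: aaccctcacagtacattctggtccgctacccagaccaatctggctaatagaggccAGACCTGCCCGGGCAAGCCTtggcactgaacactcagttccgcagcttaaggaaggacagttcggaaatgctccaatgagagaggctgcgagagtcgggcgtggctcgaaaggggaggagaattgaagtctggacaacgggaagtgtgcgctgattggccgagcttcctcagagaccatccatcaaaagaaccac

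Each of the printed elements has 1 mismatch. The consensus reads the same on both strands, so a single scan covered both. Such an element was found in 29 of 32851 windows of 300 bases, 0.0883% of all windows, and in 2 of the 11 windows of the members. A single exact half-site is far more common, with 8.36% of all windows. The scan describes letters only. Elements of other members may lie outside these windows, which end 50 bases past the start.

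Cells with more than 500 detected genes were kept, 3193 of 4514 barcodes in TKO1 and 3568 of 3816 in TKO2, with a median of 1223 and 1960 UMIs per cell. After clustering within each tumor, 2989 cells of TKO1 and 3382 cells of TKO2 were neuroendocrine-like, the tumor cells of this model, with 4225114 and 7764334 UMIs. Macrophage-like cells numbered 98 and 120 (143014 and 221410 UMIs), and the 106 club-like cells of TKO1 held 198530 UMIs. All 15 macrophage markers were at least 4-fold higher in the macrophage-like cluster of TKO1 and 14 in that of TKO2. Of 7 T and NK cell markers, 2 were also 4-fold higher in that of TKO1 and 6 in that of TKO2. In the club-like cluster of TKO1 8 of 10 club markers were at least 4-fold higher, and so were 3 of 6 alveolar type 2 markers. Its leading genes included *Sftpb* and *Ager*, and whether it holds club cells only was not tested. In TKO2 no cluster could be called club-like. Its candidate, 66 cells led by the club cell secretoglobins *Scgb1a1* and *Scgb3a2* together with *Calca* and *Resp18*, had 4 neuroendocrine markers raised as well and stays unnamed. The 16 neuroendocrine markers summed to 23072 CPM (UMIs per 1000000 UMIs of the class) in the neuroendocrine-like cells of TKO1 and 2040 CPM in those of TKO2. Most of the sum in TKO1 was *Calca* alone, with 16950 CPM there and 17.5 CPM in TKO2, so the sums do not give the difference of the other markers. The libraries shared 22 barcodes, and their removal left the *Cdkn1a* difference between the tumors at a log2 ratio of 4.55. Levels below are CPM of UMIs summed over a class, with exact 95% Poisson intervals. With 1 library per tumor there is no test and no p-value, intervals cover counting error only, and tumor, mouse and library cannot be told apart.

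*Trp53* (ENSMUSG00000059552, chromosome 11, 69580359 to 69591873 of GRCm38) was detected in the tumor cells of both mice. Its level in neuroendocrine-like cells was 49.0 CPM (42.5 to 56.1, 207 UMIs) in TKO1 and 63.0 CPM (57.5 to 68.8, 489 UMIs) in TKO2. Macrophage-like cells had 42.0 CPM (15.4 to 91.3) from 6 UMIs in TKO1 and 22.6 CPM (7.33 to 52.7) from 5 UMIs in TKO2, and club-like cells 35.3 CPM (14.2 to 72.6) from 7 UMIs. The unnamed cells of TKO2 had 75.3 CPM (34.4 to 143) from 9 UMIs. The intervals of these small classes are wide and, other than that of the macrophage-like cells of TKO2, hold the level of the tumor cells of their library. Tumor cell RNA in the other droplets, estimated from neuroendocrine markers as described for *Cdkn1a*, would come to 9.52 CPM of *Trp53* in macrophage-like and 14.0 CPM in club-like cells of TKO1, and to 20.9 CPM in macrophage-like cells of TKO2, close to the 22.6 CPM measured there. The log2 ratio of macrophage-like to neuroendocrine-like cells was -0.22 (-1.69 to 0.92) in TKO1, an interval that holds 0, and -1.48 (-3.11 to -0.25) in TKO2. The latter was -0.62 when cells needed more than 1000 detected genes. After each cell was thinned to 1000 UMIs, 4.23% of 2149 neuroendocrine-like cells of TKO1 (exact Clopper-Pearson interval 3.42 to 5.17) and 6.26% of 3021 of TKO2 (5.42 to 7.18) held a *Trp53* UMI.

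*Mdm2* (ENSMUSG00000020184, chromosome 10), which encodes the ligase that degrades p53, was slightly more abundant than *Trp53* in tumor cells of TKO1. It had 69.6 CPM (61.9 to 78.0, 294 UMIs) there and 54.9 CPM (49.8 to 60.3, 426 UMIs) in TKO2. Macrophage-like cells had 28.0 CPM (7.62 to 71.6) from 4 UMIs in TKO1 and 58.7 CPM (31.3 to 100) from 13 UMIs in TKO2, and club-like cells 25.2 CPM (8.18 to 58.8) from 5 UMIs. Between the tumors the neuroendocrine-like level of *Mdm2* differed by 0.34 on the log2 scale (0.12 to 0.56), close to the 0.23 of the median gene, and by -0.14 with TMM factors. Within TKO1 its level was lower in macrophage-like cells (-1.31, -3.20 to 0.06) and in club-like cells (-1.47, -3.10 to -0.23) than in tumor cells, and in TKO2 the macrophage-like ratio was 0.10 (-0.82 to 0.89). These values rest on few UMIs outside the tumor cells. Of the 98 macrophage-like cells of TKO1, 39 held a UMI of a T, NK, B or neutrophil marker, and of the 120 of TKO2, 40 did. Neutrophil markers summed to 860 CPM in the macrophage-like cells of TKO1 and to 190 CPM in those of TKO2. Without these cells 2 *Mdm2* UMIs were left in TKO1, 22.2 CPM, and the ratio to tumor cells was -1.65. In TKO2 4 UMIs were left, 29.0 CPM, and the ratio was -0.92.

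*Cdkn1a* (ENSMUSG00000023067, chromosome 17, 29090976 to 29100727), which encodes the cyclin-dependent kinase inhibitor p21, was the member that separated the tumors. Neuroendocrine-like cells held 649 CPM (625 to 674, 2742 UMIs) in TKO1 and 27.4 CPM (23.9 to 31.4, 213 UMIs) in TKO2. The level was 23.7-fold higher in TKO1, a log2 ratio of 4.56 (4.36 to 4.77), or 4.34 above the median gene. Of 6129 genes compared, 85 (1.39%) had a larger ratio. *Cdkn1a* was thus a high transcript in the tumor cells of one mouse labelled Trp53-/- and a low one in those of the other. In thinned cells, 39.9% of neuroendocrine-like cells held a *Cdkn1a* UMI in TKO1 (37.8 to 42.0) and 2.45% in TKO2 (1.93 to 3.07). Without thinning the shares were 45.0% and 5.09%. Under every alternative setting run the log2 ratio lay between 4.08 and 4.69.

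The order of *Cdkn1a* among the classes differed between the tumors. In TKO1 macrophage-like cells had 280 CPM (200 to 381, 40 UMIs) and club-like cells 453 CPM (365 to 557, 90 UMIs), both below the tumor cells. In TKO2 macrophage-like cells had 94.8 CPM (58.7 to 145, 21 UMIs), above the tumor cells. The log2 ratio of macrophage-like to neuroendocrine-like cells was -1.21 (-1.70 to -0.77) in TKO1 and 1.79 (1.07 to 2.44) in TKO2. The club-like ratio was -0.52 (-0.84 to -0.21) and became -0.06 with TMM factors. RNA of tumor cells was present in the other droplets. The 9 neuroendocrine markers with at least 200 CPM in tumor cells of TKO1 stood in macrophage-like cells at 12.8% to 27.3% of their tumor cell level, with a median of 19.4%, and in club-like cells at a median of 28.6%. The same median shares of the tumor cell level of *Cdkn1a* come to 126 CPM and 186 CPM, below the 280 and 453 CPM measured. In TKO2 a median of 33.2%, from 2 markers, comes to 9.12 CPM of *Cdkn1a*.

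**Figure D1:**
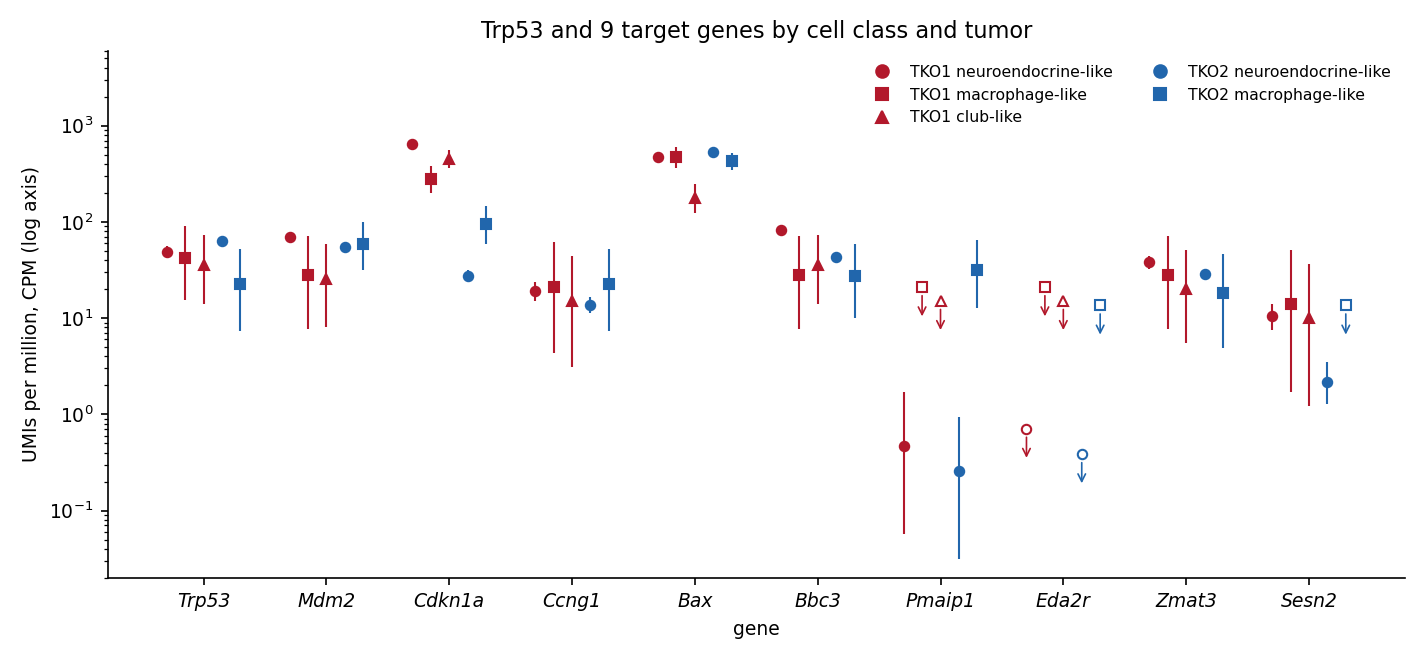
Level of each member (CPM, log axis) in the 3 classes of TKO1 (red) and the 2 of TKO2 (blue), with exact 95% Poisson intervals. Open symbols with arrows mark 0 UMIs and stand at the level of 3 UMIs. *Cdkn1a* stood at 649 CPM in tumor cells of TKO1 and at 27.4 CPM in those of TKO2, *Bax* lay between 425 and 536 CPM in every class but club-like cells, and *Eda2r* was at 0 throughout.

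*Ccng1* (ENSMUSG00000020326, chromosome 11, 40748552 to 40755311), which encodes cyclin G1, was low everywhere. Its level was 19.2 CPM (15.2 to 23.8, 81 UMIs) and 13.7 CPM (11.2 to 16.5, 106 UMIs) in the tumor cells of TKO1 and TKO2. It was 21.0 CPM and 22.6 CPM in macrophage-like cells, from 3 and 5 UMIs, and 15.1 CPM in club-like cells, from 3 UMIs. Its promoter window carries an element with the same number of mismatches as the printed window of *Cdkn1a*. The ratio of *Ccng1* between the tumors was 0.49 (0.05 to 0.92), and that of *Cdkn1a* was 4.56. Whether either element has a part in these levels was not tested. With TMM factors the *Ccng1* ratio was 0.01. No class stood apart in *Ccng1*.

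*Bax* (ENSMUSG00000003873, chromosome 7, 45461697 to 45466898), a pore-forming apoptosis effector, was the most even of the abundant members. Tumor cells had 469 CPM (449 to 490, 1983 UMIs) in TKO1 and 536 CPM (519 to 552, 4158 UMIs) in TKO2, a log2 ratio of -0.19 (-0.27 to -0.11). Macrophage-like cells had 468 CPM (363 to 595, 67 UMIs) and 425 CPM (343 to 520, 94 UMIs). Club-like cells had less, 176 CPM (123 to 245, 35 UMIs), a log2 ratio to tumor cells of -1.41 (-1.94 to -0.93), where the median gene was at -0.61. With more than 1000 detected genes per cell this ratio was -0.74. Tumor cell RNA, estimated as for *Cdkn1a*, would come to 134 of the 176 CPM of *Bax* in club-like cells. In macrophage-like cells it would come to 91.2 CPM in TKO1 and 178 CPM in TKO2. The levels and ratios were not corrected for it. An overlapping gene on the same strand, *Gm45808*, is not in the gene list, and how its reads were assigned is not known.

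*Bbc3* (ENSMUSG00000002083, chromosome 7, 16308393 to 16318205) encodes Puma, a BH3-only activator of apoptosis. It had 81.4 CPM (73.0 to 90.5, 344 UMIs) in tumor cells of TKO1 and 43.0 CPM (38.5 to 47.9, 334 UMIs) in those of TKO2, a log2 ratio of 0.92 (0.70 to 1.14). This was next to *Cdkn1a* the largest ratio between the tumors among the 6 members that passed the filter below, and it was 0.44 with TMM factors. In TKO1 *Bbc3* was lower in macrophage-like cells (28.0 CPM, 4 UMIs, log2 ratio -1.54, -3.43 to -0.17, or -3.69 with more than 200 detected genes) and club-like cells (35.3 CPM, 7 UMIs, -1.21, -2.53 to -0.15). In TKO2 macrophage-like cells had 27.1 CPM from 6 UMIs, and the ratio of -0.67 (-2.12 to 0.47) has an interval that holds 0.

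*Pmaip1* (ENSMUSG00000024521, chromosome 18), which encodes the BH3-only protein Noxa, was nearly undetected in tumor cells. There were 2 UMIs in the neuroendocrine-like cells of TKO1, 0.473 CPM (0.0573 to 1.71), and 2 in those of TKO2, 0.258 CPM (0.0312 to 0.930). The macrophage-like cells of TKO2 held 7 UMIs, 31.6 CPM (12.7 to 65.1), and 6 of these were in cells without a UMI of a T, NK, B or neutrophil marker. These 7 UMIs lay in 5 cells. The log2 ratio to tumor cells was 6.94 (4.55 to 10.24), but *Pmaip1* did not pass the filter below and is not in the counts of members. In TKO1 macrophage-like and club-like cells had 0 UMIs, which allows up to 21.0 and 15.1 CPM, so a level as in TKO2 would have been only just detectable.

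*Eda2r* (ENSMUSG00000034457, chromosome X, 97333840 to 97377216), a receptor of the tumor necrosis factor family that binds ectodysplasin A2, was at 0 UMIs in every named class. The limit of 3 UMIs is 0.710 CPM in the tumor cells of TKO1 and 0.386 CPM in those of TKO2. It is 21.0, 13.5 and 15.1 CPM in the macrophage-like cells of TKO1, those of TKO2 and the club-like cells, so only in tumor cells was a low level detectable. *Zmat3* (ENSMUSG00000027663, chromosome 3), an RNA-binding zinc finger protein, had 37.9 CPM (32.2 to 44.2, 160 UMIs) and 28.5 CPM (24.8 to 32.5, 221 UMIs) in the tumor cells, a log2 ratio of 0.41 (0.11 to 0.71) that was -0.068 with TMM factors. Its 4 UMIs in each of the other classes gave 28.0 CPM and 18.1 CPM in macrophage-like and 20.1 CPM in club-like cells, with intervals of the ratio to tumor cells that hold 0.

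*Sesn2* (ENSMUSG00000028893, chromosome 4, 132492032 to 132510501), a stress-induced inhibitor of mTORC1 signaling, was rare but differed between the tumors. Tumor cells had 10.4 CPM (7.57 to 14.0, 44 UMIs) in TKO1 and 2.19 CPM from 17 UMIs in TKO2, a log2 ratio of 2.25 (1.41 to 3.15), which was 1.26 when cells needed more than 1000 detected genes. Macrophage-like cells had 2 UMIs in TKO1 and 0 in TKO2, and club-like cells 2. *Gm12981*, an overlapping gene on the same strand, had 3 and 0 UMIs in the tumor cells.

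For counts over the members, a gene had to have at least 10 UMIs over both groups and a mean of at least 20 CPM, and 2-fold was the mark. Against tumor cells of TKO1, 7 members passed in macrophage-like cells, 0 were 2-fold higher and 3 lower (*Cdkn1a*, *Mdm2*, *Bbc3*), where 14.7% of 6318 genes were higher and 31.7% lower. In TKO2, 6 passed, with *Cdkn1a* higher and *Trp53* lower, where 18.1% of 5595 genes were higher and 25.6% lower. In club-like cells 6 passed, 0 were higher and 3 lower (*Mdm2*, *Bax*, *Bbc3*), where 7.97% of 6126 genes were higher and 32.5% lower. With so few members, these shares cannot be told from those of all genes. The median member was at -0.44, -0.50 and -1.06 on the log2 scale, and the median gene at -0.44, -0.40 and -0.61. With TMM factors 1 of the 3 members stayed 2-fold lower in macrophage-like cells of TKO1 and 1 of the 3 in club-like cells.

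Between the tumor cells of TKO1 and TKO2, 6 members passed, *Cdkn1a* was 2-fold higher in TKO1 and 0 were 2-fold lower, where 22.9% of 6129 genes were higher and 9.66% lower. The median member had a log2 ratio of 0.38. Between the macrophage-like cells of the tumors 5 members passed, *Cdkn1a* was higher in TKO1 (1.56, 0.76 to 2.40) and *Mdm2* lower (-1.07, -3.14 to 0.62), where 14.0% of 4722 genes were higher and 12.5% lower. When macrophage-like cells with lymphoid or neutrophil UMIs were left out, *Cdkn1a* was at 0.98 and *Mdm2* no longer passed the filter. Tumor cell RNA, estimated as above, would come to 126 of the 280 CPM of *Cdkn1a* in macrophage-like cells of TKO1. In those of TKO2 it would come to 9.12 of 94.8 CPM, and the ratio between the tumors was not corrected for it. These shares of members are over few genes and lie near those of all genes, apart from the size of the *Cdkn1a* difference.

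**Figure D2:**
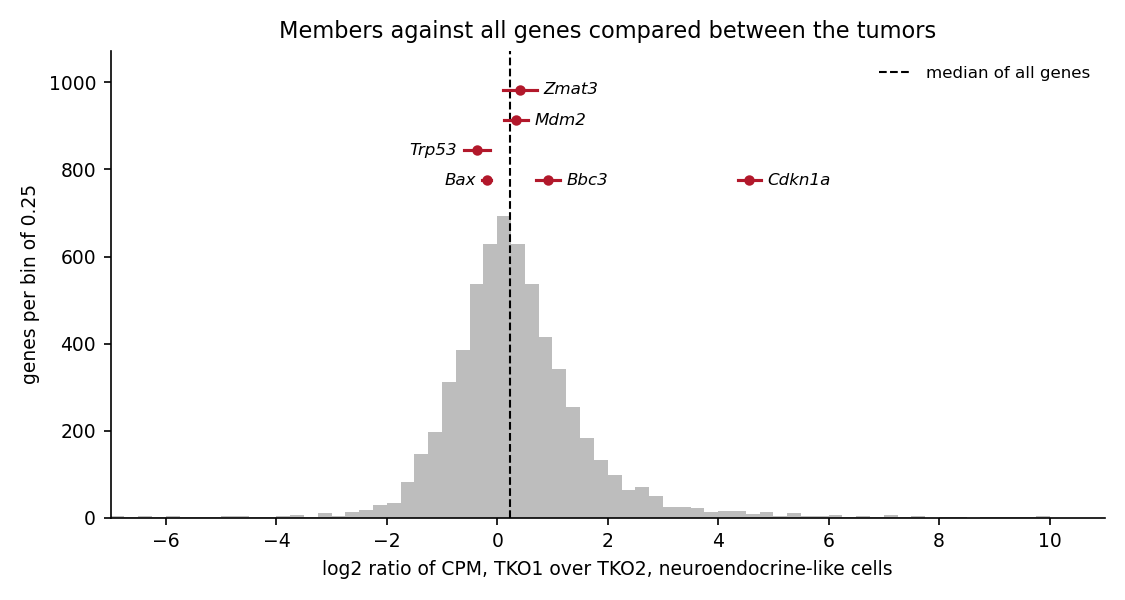
Number of genes (of 6129) in each bin of the log2 ratio of CPM, TKO1 over TKO2, in neuroendocrine-like cells. Red points and bars are the 6 members that passed the filter with 95% intervals, at heights chosen for legibility, and the dashed line is the median gene at 0.23. *Cdkn1a* at 4.56 lies in the right tail, and the other members lie between -0.36 and 0.92.

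The *Cdkn1a* difference held cluster by cluster. Its lowest level in the 8 neuroendocrine-like clusters of TKO1 was 234 CPM (186 to 291), in cluster 6, led by *Nefm*, *Nefl* and *Mycl*. Its highest level in the 9 clusters of TKO2 was 56.3 CPM (41.9 to 74.0), so the ranges did not overlap. Clusters of a tumor share its library and do not repeat the difference. How many of all genes have ranges that do not overlap was not counted. Within TKO1 the highest level, 1380 CPM (1254 to 1516), was in cluster 7, whose leading genes include the replication genes *Clspn*, *Asf1b* and *E2f8*. In that cluster 67.8% of thinned cells held a *Cdkn1a* UMI, against 21.1% in cluster 6. Cluster 5 of TKO1, led by the mitotic genes *Ube2c*, *Birc5* and *Ccnb2*, had 602 CPM (542 to 667). Without cluster 7 the ratio between the tumors was 4.43.

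The other members did not all follow *Cdkn1a* among the clusters of TKO1. *Bax* (639 CPM, 554 to 734, 202 UMIs) and *Ccng1* (28.5 CPM, 13.0 to 54.1, 9 UMIs) were also highest in cluster 7. *Mdm2* (43.3 CPM, 24.3 to 71.5, 15 UMIs) and *Zmat3* (14.4 CPM, 4.69 to 33.7, 5 UMIs) were also lowest in cluster 6. For *Ccng1*, *Mdm2* and *Zmat3* the intervals of the highest and lowest clusters overlap, so these counts do not order the clusters. *Bbc3* and *Sesn2* were highest in cluster 2 of TKO1, with 123 CPM (95.2 to 157) and 24.2 CPM (12.9 to 41.4, 13 UMIs). That cluster also had the highest summed level of hypoxia genes, 9897 CPM, and of integrated stress response genes, 1587 CPM, among the tumor clusters of TKO1. *Trp53* was lowest there, 28.0 CPM (15.7 to 46.1), and highest in cluster 6, 80.9 CPM (53.8 to 117), where *Cdkn1a* was lowest. In TKO2 *Trp53* ran from 46.0 to 95.2 CPM and in TKO1 from 28.0 to 80.9 CPM, so these ranges overlap. *Bax* stayed within 365 to 639 CPM in TKO1 and 462 to 588 CPM in TKO2.

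**Figure D3:**
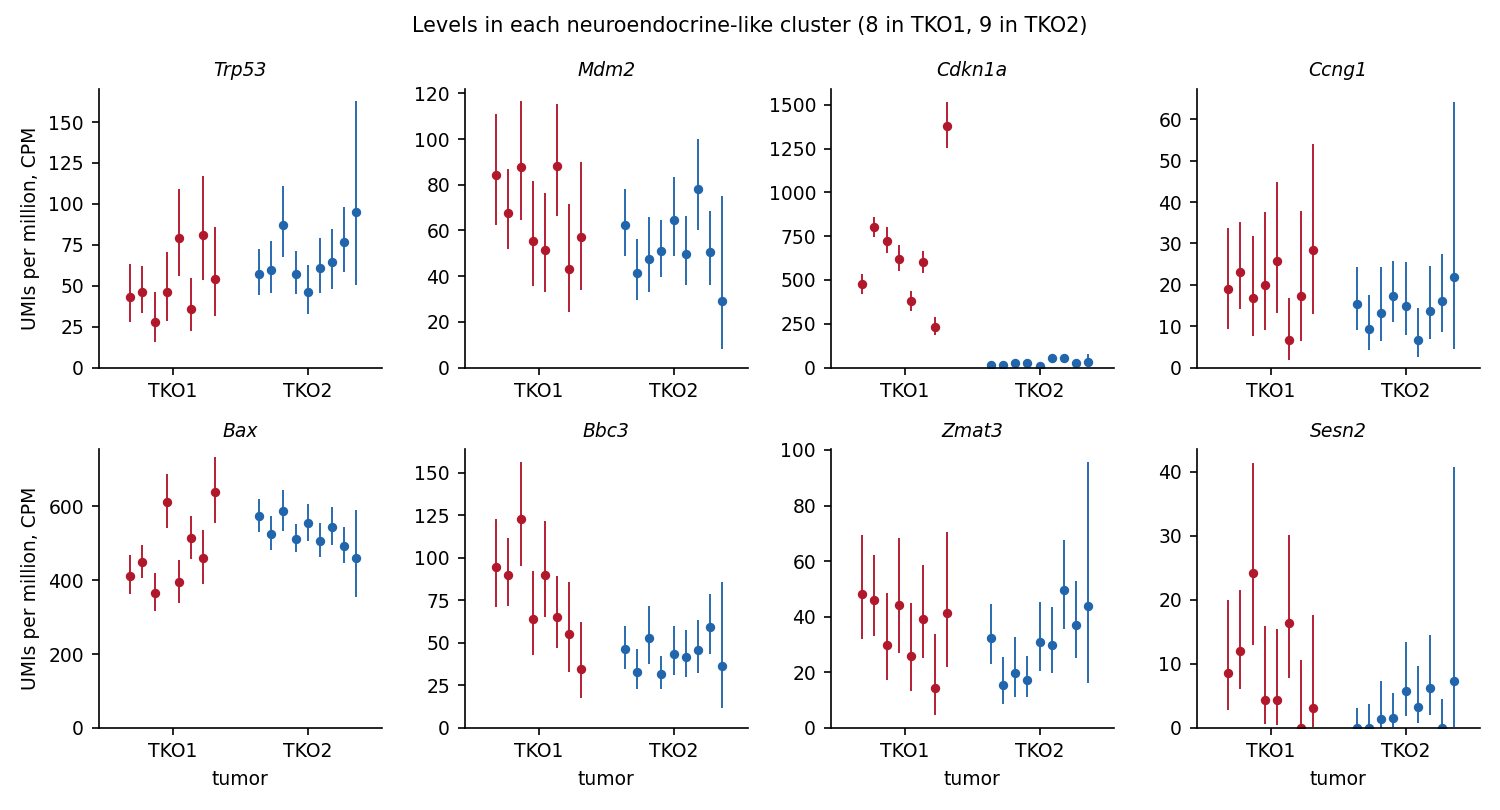
Level (CPM, linear axes that start at 0 and differ between panels) of 8 members in each neuroendocrine-like cluster of TKO1 (red) and TKO2 (blue), with exact 95% Poisson intervals and clusters in order of their number. *Cdkn1a* runs from 234 to 1380 CPM in TKO1 and from 10.3 to 56.3 CPM in TKO2. For *Trp53*, *Mdm2*, *Ccng1*, *Bax*, *Bbc3*, *Zmat3* and *Sesn2* the clusters of the tumors overlap.

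Immediate early and dissociation genes moved with *Cdkn1a* between the tumors. Summed over 11 genes they reached 15143 CPM in the tumor cells of TKO1 and 1726 CPM in those of TKO2, and by cluster 8875 to 22212 CPM against 630 to 4104 CPM. The other classes lay between, with 7139 and 4918 CPM in macrophage-like cells of TKO1 and TKO2 and 11877 CPM in club-like cells. Within TKO1 the orders differed. Cluster 4 had the highest sum of these genes, 22212 CPM, and 377 CPM of *Cdkn1a*, while cluster 7 had 11043 CPM of them and the highest *Cdkn1a*. Both tumors were digested with Collagenase/Dispase before sorting, and the part of this step in the *Cdkn1a* difference was not tested.

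**Figure D4:**
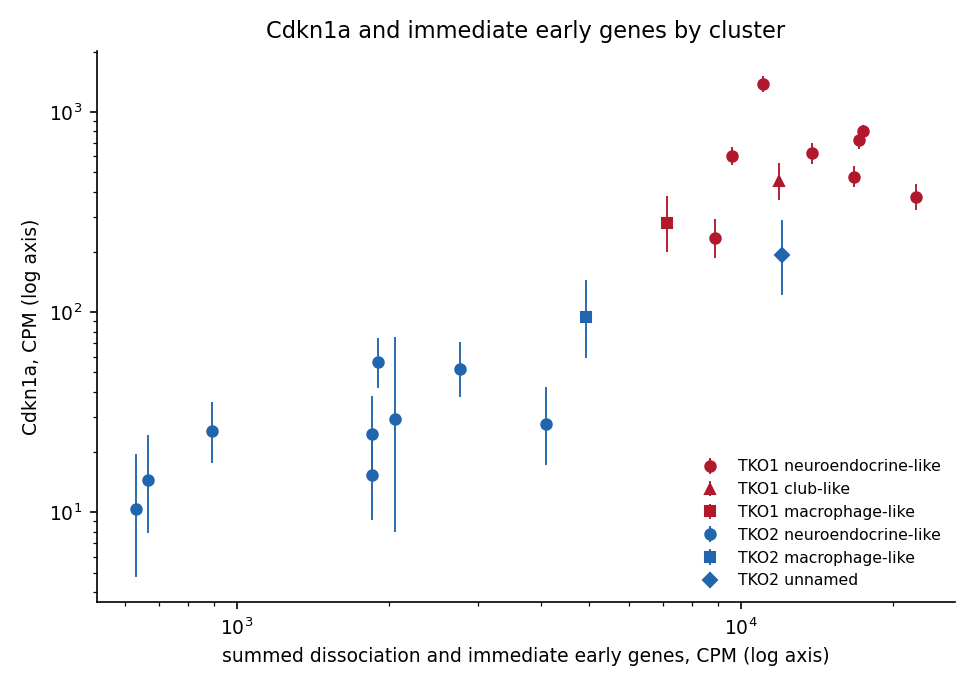
*Cdkn1a* level (CPM, log axis, 95% Poisson interval) against the summed level of 11 dissociation and immediate early genes (CPM, log axis), 1 point per cluster, red for TKO1 and blue for TKO2. All tumor clusters of TKO1 lie above 8875 CPM of the summed genes and all of TKO2 at or below 4104 CPM, and within TKO1 the cluster with the most *Cdkn1a*, 1380 CPM, is not the one with the highest sum.

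Other known p53 targets differed in both directions. In a list of 32 such genes without the members, 13 passed between the tumor cells, 5 were 2-fold higher in TKO1 and 1 in TKO2, where 22.9% and 9.66% of all genes were. Their median log2 ratio was 0.71, and that of all genes 0.23. *Sfn*, which encodes the cell cycle inhibitor 14-3-3 sigma, had 248 CPM in TKO1 and 5.41 CPM in TKO2, a log2 ratio of 5.52 (5.07 to 6.00). *Trp53inp1*, a stress-induced cofactor of p53, had 43.5 and 5.28 CPM (3.04, 2.55 to 3.57). *Btg2*, an antiproliferative gene that is also an immediate early gene, had 1314 and 197 CPM (2.74, 2.65 to 2.82). On the other side *Plk3*, a stress-responsive polo-like kinase, had 6.63 and 42.1 CPM (-2.67, -3.28 to -2.11). *Rprm*, which encodes the cell cycle inhibitor reprimo, had 0 UMIs in TKO1 and 194 in TKO2, a level at least 35.2-fold lower in TKO1.

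Against tumor cells, 16 genes of this list passed in macrophage-like cells of TKO1, with 3 higher and 6 lower, where 14.7% and 31.7% of all genes were. In TKO2 12 passed, with 4 higher and 2 lower, where 18.1% and 25.6% of all genes were. In club-like cells 17 passed, with 4 higher and 6 lower, where 7.97% and 32.5% of all genes were. The stress cytokine gene *Gdf15* was higher in macrophage-like cells of both tumors. It had 42.0 CPM (6 UMIs) against 3.79 CPM in TKO1 and 113 CPM (25 UMIs) against 2.19 CPM in TKO2. *Plk2*, another polo-like kinase, had 54.2 CPM (12 UMIs) against 3.48 CPM in TKO2. In TKO1 *Plk2* had 21.0 CPM, from 3 UMIs, against 9.70 CPM. It did not pass the filter there, and the interval of its log2 ratio, -1.22 to 2.76, holds 0. *Ddit4*, an inhibitor of mTORC1, was lower, 21.0 CPM (3 UMIs) against 131 CPM in TKO1 and 31.6 CPM (7 UMIs) against 81.4 CPM in TKO2. Of the 18 regulators and relatives of p53 in the files, 10 passed between the tumor cells, 1 was 2-fold higher in TKO1 and 0 in TKO2. Of all genes, 22.9% and 9.66% were. The median log2 ratio of these 10 was 0.47, and that of all genes 0.23.

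The genes whose levels over all 21 clusters of both tumors were most like a member were ranked by Pearson correlation of log2(CPM + 10) among 4756 genes with at least 50 CPM in 3 clusters. For *Cdkn1a* these were *Rbms1*, *Cdc14a*, *Nudt18*, *Calca* and *Serinc2*, with r from 0.96 to 0.95. All are higher in the tumor cells of TKO1, such as *Rbms1* with 169 against 11.3 CPM. For *Trp53* they were *2810001G20Rik*, *Rfc2*, *Ngfrap1*, *Tmem246* and *Bex2*, with r from 0.83 to 0.77. Clusters of a tumor share its library, so these values describe the clusters only. The correlation runs over both tumors together, so for *Cdkn1a* it takes in the difference between them reported above. For *Trp53* some clusters hold few UMIs, such as 5 in the macrophage-like cluster of TKO2.

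Genes near *Cdkn1a* did not share the size of its difference. Of its neighbors within 1 Mb, 19 passed the filter between the tumor cells, with a median log2 ratio of 0.49, 6 at least 2-fold higher in TKO1 and 1 in TKO2. Of all 6129 genes compared, 22.9% were higher in TKO1 and 9.66% lower, with a median of 0.23. Over so few neighbors the counts cannot be told from these shares. *Srsf3*, the tested neighbor nearest to *Cdkn1a*, had a ratio of -0.89, and the highest was *Lhfpl5* at 3.15. The neighbors of *Trp53* had a median of 0.06 over 32 genes.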

How the data were processed

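For each tumor the deposited values are raw UMI counts of every gene in every barcode, without normalization by the authors. The submitters' processing notes name Cell Ranger, Seurat and mm10, with no versions. Of 27998 identifiers, 27645 matched GENCODE M21 (GRCm38), which gave positions.

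Barcodes above 500 detected genes and under 10% mitochondrial UMIs were clustered per tumor in Seurat 5.3.0 (R 4.3.3, 1000 variable genes without p53 genes, 10 principal components, resolution 0.8). Clusters were named from marker lists, by at least 3 markers at least 4-fold over other cells, or for neuroendocrine-like clusters 2-fold over macrophage-like cells. Scrublet (scanpy 1.11.5) called 0 doublets in either tumor, so it removed none, and removing the highest scores was an alternative. UMIs were summed per class and scaled to CPM. Intervals are exact (Poisson, conditional binomial for ratios, Clopper-Pearson for shares) at 95%. A count of 0 was read as at most 3 UMIs. TMM factors came from edgeR 4.0.16, and no test was run since each tumor has 1 library. Shares used cells thinned to 1000 UMIs. Python 3.11.15, numpy 2.4.6, scipy 1.17.1, pandas 2.3.3 and matplotlib 3.10.9 were used. The ratios and their intervals were tested on simulated Poisson counts, which hold counting error only. Between the tumor cells, 99.5% of genes changed by a log2 of 1.5 were called at 2-fold, and 0% of unchanged genes. For macrophage-like against tumor cells of TKO1 these were 89.6% and 8.91%. The intervals held the true ratio for 95.3% and 96.2% of genes.

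The members and lists were chosen with earlier results of these data known. Named from the lists are genes 2-fold apart in the same direction between macrophage-like and tumor cells of both tumors with at least 50 CPM in 1 class, and up to 5 by the largest ratio between the tumors with at least 20 CPM in 1. A result that this rule reached is not reported here. Genes named as cluster leaders or neighbors, the macrophage-like comparison between tumors, the neighbors and the removal of cluster 7, of cells with lymphoid or neutrophil UMIs and of shared barcodes were chosen after seeing the data.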

Additional observations from a re-analysis of the deposited data

Results flagged for a closer look

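The log2 ratio of *Cdkn1a* between macrophage-like and neuroendocrine-like cells had opposite signs in the tumors, -1.21 in TKO1 and 1.79 in TKO2, and the difference between these ratios was not tested.

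*Cdkn1a* was also present in cells that no comparison used. The unnamed cluster of TKO2, with club and neuroendocrine markers together, had 192 CPM (122 to 289, 23 UMIs), above the tumor cells of its own library, and 12080 CPM of dissociation and immediate early genes. Of its 66 barcodes, 1 also occurred in TKO1. Barcodes with 500 or fewer detected genes had 436 CPM (389 to 487) in TKO1 and 37.6 CPM (15.1 to 77.5) in TKO2.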

How the results depend on the processing

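No paired analysis was possible because each tumor has 1 library, and for the same reason no replicate could be left out. Of 60 recomputed ratios of *Cdkn1a*, 51 stayed within the reported interval, 9 left it and 0 changed direction past 2-fold. Of 367 ratios of other members, 348 stayed within theirs and 19 left it. Among ratios that rest on few UMIs, *Bbc3* in macrophage-like cells of TKO1 moved from -1.54 to -3.69 with more than 200 detected genes. Others moved less, *Bbc3* in macrophage-like cells of TKO2 to -2.01, *Zmat3* in club-like cells to -2.32 and *Ccng1* there to -1.35 without cells holding markers of another class, and *Mdm2* in macrophage-like cells of TKO2 to -0.92 without lymphoid or neutrophil UMIs. No macrophage-like class of TKO1 remained with more than 1000 detected genes.

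Between the tumor cells the *Cdkn1a* ratio was 4.22 with more than 1000 detected genes, 4.08 with TMM factors and 4.34 with a total without mitochondrial and ribosomal protein genes. Its club-like ratio was -0.85 with more than 200 detected genes, -0.86 without cells holding markers of another class, -0.059 with TMM factors and -0.20 with equal weight per cell. With classes taken from marker UMIs alone, its macrophage-like ratio was -1.79 in TKO1 and 0.68 between the tumors.

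Counts of members past 2-fold were small, and 115 of 140 recomputed counts stayed within 1.5 times. With a fold of 4, 0 members that passed the filter were higher or lower in the comparisons with macrophage-like or club-like cells. In macrophage-like cells of TKO1 1 was higher with more than 200 detected genes and 1 lower with TMM factors. In those of TKO2 2 were lower with classes from marker UMIs alone, without cells holding markers of another class and without lymphoid or neutrophil UMIs, and 0 with a mean of at least 50 CPM. In club-like cells 1 was lower with more than 1000 detected genes and with TMM factors. Between the tumor cells 2 were higher with no filter on the mean, *Sesn2* being the added one. Between macrophage-like cells 0 were higher and 0 lower with more than 200 detected genes, classes from marker UMIs alone, or either removal of cells with other markers, and 0 were lower with the highest Scrublet scores removed or a mean of at least 50 CPM. The cause of these changes was not tested. Shares of cells with a UMI followed the depth of thinning, with 24.8% and 63.8% for *Cdkn1a* in tumor cells of TKO1 at 500 and 2000 UMIs and 1.48% and 4.74% in TKO2.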
